A study of Mus musculus with 8 samples.

Results

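Transcripts of the fibroblast growth factor (FGF) and platelet-derived growth factor (PDGF) ligands and of their receptors were measured by RNA-seq in NMuMG, a line of mouse mammary epithelium. The genes were chosen by symbol: the ligands *Pdgfa*, *Pdgfb*, *Fgf1* and *Fgf2*, the FGF receptors *Fgfr1*, *Fgfr2*, *Fgfr3* and *Fgfr4*, and the PDGF receptor *Pdgfrb*. These 9 symbols took 10 of the 37310 genes counted, since *Fgfr1* has 2 identifiers. Of the 10, 6 had enough counts to be tested among 13028 genes, namely *Pdgfa*, *Pdgfb*, *Fgf1*, *Fgfr1*, *Fgfr2* and *Fgfr3*.

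The study asked how the long noncoding RNA *Lnc-Nr6a1* takes part in the early response of these cells to TGF-β, a cytokine that drives epithelial-mesenchymal transition. There were 4 groups of 2 libraries each: control cells without treatment, control cells given 10 ng/ml TGF-β1 for 2 h, cells of the *Lnc-Nr6a1* knockout genotype without treatment, and cells of that genotype given the same TGF-β1 for the same 2 h. All groups shared the parental line and a medium with serum and insulin, which itself can signal through a receptor tyrosine kinase. The knockout cells came from a CRISPR-Cas9 deletion that spans the promoter and the first exon and were grown from single sorted cells, and the number of clones sequenced, the nature of the control cells and whether replicates were separate cultures are not stated in the sources used here, so that clone and genotype cannot be told apart. Total counts were 7871090 and 7800602 in control replicates 1 and 2, 11210495 and 9895118 in the treated control replicates, 4297832 and 7181737 in the knockout replicates, and 12761749 and 13574397 in the treated knockout replicates. With 2 libraries a group, which the study calls biological replicates, every p-value below measures only the spread between these libraries.

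The targeted gene itself, *Lnc-Nr6a1* (ENSMUSG00000085201.1), had 3 and 14 counts in the control replicates and 25 and 35 in the treated control replicates. It had 11 and 7 counts in the untreated libraries of the knockout genotype and 0 in both treated ones. Scaled to library size, the untreated libraries of both genotypes overlapped, at 0.362 and 1.71 CPM (counts scaled by effective library size) in control cells against 2.42 and 0.93 CPM, and the counts cover the whole annotated gene, also outside the deleted fragment. For this reason these libraries are called libraries labelled knockout throughout, and each direction between genotypes given below rests on those labels. The study reports full loss of this RNA in homozygous clones. In *Sdc3*, picked out after its values were seen, all 4 libraries labelled knockout stood apart from the control libraries, at 101 to 268 against 12.1 to 42.3 CPM.

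Of 9 epithelial markers, *Krt18*, at 2440 to 5800 CPM, and *Krt8*, at 2130 to 4350 CPM, were the most abundant, and *Cdh1* and *Krt19* were also well detected. The defining epithelial genes *Cldn3* and *Cldn7* were at 0 in every library and *Epcam* had 2 counts in 1 library. *Krt7* was at 0.326 to 1.76 CPM, and *Cldn4* at 0 to 0.121 CPM in untreated and 1.38 to 12.9 CPM in treated libraries. The markers summed to 5950 and 5870 CPM in control cells, 10900 and 8030 in treated control cells, 6970 and 6630 in libraries labelled knockout, and 7940 and 10400 CPM in treated libraries labelled knockout. Markers of other cell types, among them the fibroblasts and pericytes that usually carry PDGF receptors, were much lower. The sum over 10 fibroblast and pericyte markers was 0.797 to 5.01 CPM, with *Col1a1* as the most abundant at 0.362 to 4.24 CPM and *Lum* and *Thy1* at 0, and that over 6 endothelial markers was 0 to 0.847 CPM, with *Cdh5* read only in the treated libraries and *Kdr*, *Tie1* and *Emcn* at 0. The sum over 6 blood cell markers was 2.46 to 5.71 CPM, mostly *Cd68*, with *Pf4* at 0.

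PDGF ligands are secreted dimers of A, B, C or D chains that bind receptors made of the α or β chain, which are typical of fibroblasts, pericytes and other mesenchymal cells, so that in many tissues an epithelium makes the ligand and the stroma answers it. FGF ligands bind their receptors together with heparan sulfate, and in mammary epithelium the epithelial form of *Fgfr2* receives FGFs from the stroma during branching. Both receptor families pass the signal through adaptor proteins to the ERK and PI3K pathways and are damped by Sprouty proteins and by dual-specificity phosphatases.

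Per length of annotated exons, that is in CPM per kilobase (RPKM), *Pdgfa*, *Pdgfb* and *Fgf1* were the most abundant of these genes in every library. In control cells the levels were 16.4 ± 1.27 RPKM for *Pdgfb* (SD, n = 2), 8.84 ± 1.90 for *Fgf1* and 7.93 ± 0.924 for *Pdgfa*. *Fgfr2* followed at 1.54 ± 0.273 RPKM, then *Fgfr1* at 0.323 ± 0.157 and *Fgfr3* at 0.238 ± 0.0145 RPKM. In this order *Fgf1* and *Pdgfa* did not differ beyond their spread, since *Pdgfa* was the higher of the pair in control replicate 1 and *Fgf1* in control replicate 2, and the same exchange held for *Fgfr1* and *Fgfr3*. The steps from *Pdgfb* to the other ligands, from the ligands to *Fgfr2* and from *Fgfr2* to the other receptors were present in both control libraries. In treated control cells *Pdgfb* at 132 and 47.1 RPKM and *Pdgfa* at 65.9 and 37.0 RPKM both stood above *Fgf1* at 9.25 and 11.2 RPKM. The order of the PDGF ligands was not fixed under treatment, since in treated replicate 1 labelled knockout *Pdgfa* reached 51.5 and *Pdgfb* 34.1 RPKM, whereas in replicate 2 *Pdgfb* reached 207 and *Pdgfa* 95.1 RPKM. The ratio of *Pdgfb* to *Pdgfa* in RPKM lay between 1.27 and 2.18 in 7 libraries and was 0.663 in that treated replicate 1 labelled knockout.

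**Figure D1:**
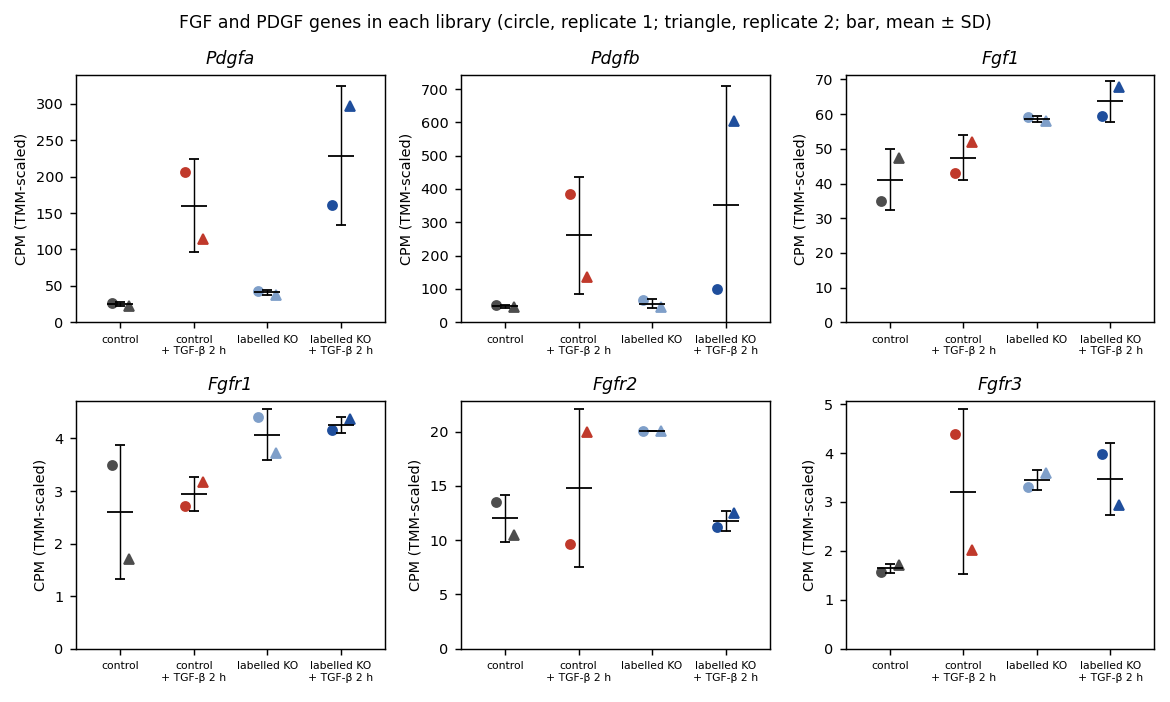
Levels in CPM (y axis, TMM-scaled) of the 6 tested genes in the 4 groups (x axis; KO, labelled knockout), with replicate 1 as a circle, replicate 2 as a triangle and the mean ± SD as bars. *Pdgfa* spans 22.7 to 43.6 CPM in the 4 untreated libraries and 115 to 297 CPM in the 4 treated ones, and the treated replicates of *Pdgfb* lie far apart, at 385 and 137 CPM for control cells beside 99.6 and 604 CPM for cells labelled knockout.

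*Pdgfa* (ENSMUSG00000025856.9), on the minus strand at chr5:139451968-139473324 of NCBIM37 (mm9), encodes the A chain. Its level was 26.8 and 22.7 CPM in control cells, 206 and 115 CPM in treated control cells, 43.6 and 38.1 CPM in libraries labelled knockout, and 161 and 297 CPM in treated libraries labelled knockout. All 4 treated libraries were above all 4 untreated ones, the untreated libraries labelled knockout were both above the untreated control libraries, and the treated libraries of both genotypes overlapped. With TGF-β *Pdgfa* rose 6.48-fold in control cells (log2 fold change 2.70, SE 0.34, adjusted p = 0.00248 by edgeR with Benjamini-Hochberg adjustment) and 5.60-fold in cells labelled knockout (2.49, SE 0.34, adjusted p = 0.00331). It was the only one of the 6 tested genes to pass in either treatment comparison, where a call needs an adjusted p under 0.05 and a log2 change beyond 0.5. Among all 13028 genes tested, 4.69% rose and 4.47% fell in control cells, and 4.25% rose and 2.57% fell in cells labelled knockout. None of the 6 fell by edgeR or DESeq2 in either genotype, and at an unadjusted p under 0.05 there were 2 higher and 0 lower in control cells and 2 higher and 1 lower, *Fgfr2*, in cells labelled knockout, beside 26.8% and 22.7% of all genes in either direction. These are bulk samples, in which fewer cells of a type and less RNA per cell cannot be told apart.

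The *Pdgfa* call in control cells held when each of the 8 libraries was left out, with log2 changes of 2.21 to 3.05 and adjusted p of 0.000651 to 0.0372 by edgeR with Benjamini-Hochberg adjustment. In cells labelled knockout it was lost without untreated replicate 1 labelled knockout (2.59, adjusted p = 0.0541) or replicate 2 (2.40, adjusted p = 0.063), and adjusted p by edgeR with Benjamini-Hochberg adjustment was 0.000544 to 0.00814 without any other library, within a range of 1.43e-34 to 0.063 over all its alternatives. Relative to the mean of the untreated libraries of its genotype, *Pdgfa* was 8.31 and 4.66 times higher in the treated control replicates and 3.93 and 7.25 times higher in the treated replicates labelled knockout. The change did not differ detectably between genotypes, since the interaction was -0.21 on the log2 scale (SE 0.46, 95% interval -1.24 to 0.82, adjusted p = 0.935 by edgeR with Benjamini-Hochberg adjustment). Without treated control replicate 1 that interaction turned to 0.31 and without treated replicate 1 labelled knockout to 0.19, neither of which passed.

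*Pdgfb* (ENSMUSG00000000489.6), on the minus strand at chr15:79826330-79845238, encodes the B chain, which binds both receptor chains. Its level was 50.4 and 45.2 CPM in control cells, 385 and 137 CPM in treated control cells, 65.3 and 47.2 CPM in libraries labelled knockout, and 99.6 and 604 CPM in treated libraries labelled knockout. All 4 treated libraries were again above all 4 untreated ones, but the treated replicates differed by 2.80 times in control cells and by 6.06 times in cells labelled knockout, against 1.12 and 1.38 times between the untreated replicates. Relative to the untreated mean, the treated replicates were at 8.06 and 2.88 times in control cells and at 1.77 and 10.7 times in cells labelled knockout. The fitted difference did not pass, at 2.45 in control cells (SE 0.72, adjusted p = 0.0643 by edgeR with Benjamini-Hochberg adjustment) and 2.65 in cells labelled knockout (SE 0.73, adjusted p = 0.0616). By DESeq2 with Benjamini-Hochberg adjustment the adjusted p was 0.08 and 0.0563.

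The outcome for *Pdgfb* depended on single treated libraries and on the fit. Without the filter on low counts it was called in both genotypes (log2 changes of 2.45 and 2.71), and in control cells also when only the 4 libraries compared were fitted (2.44, adjusted p = 0.0232 by edgeR with Benjamini-Hochberg adjustment). In control cells *Pdgfb* was also called without treated replicate 1 or 2 labelled knockout (log2 change 2.45 in both cases). Neither library is in that comparison, but both enter the fit of all groups, which share an estimate of the spread. The cause was not tested. Without treated control replicate 2 *Pdgfb* was called in control cells at a log2 change of 3.01. Without treated control replicate 1 the value dropped to 1.51 and adjusted p by edgeR with Benjamini-Hochberg adjustment was 0.186, inside a range of 1.41e-35 to 0.278 over its alternatives. In cells labelled knockout it was called without treated replicate 1 of that label (3.46, adjusted p = 0.00253) or without either treated control replicate (2.68, adjusted p = 0.0274 and 0.0265 by edgeR with Benjamini-Hochberg adjustment). Without treated replicate 2 labelled knockout the value dropped to 0.86 and adjusted p by edgeR with Benjamini-Hochberg adjustment was 0.429, inside a range of 1.27e-42 to 0.429. The interaction was 0.20 (SE 0.98, 95% interval -1.99 to 2.39, adjusted p = 0.976 by edgeR with Benjamini-Hochberg adjustment), and it turned to -1.58 without treated replicate 2 labelled knockout, to -0.33 without treated control replicate 2 and to -0.013 without untreated replicate 2 labelled knockout.

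*Fgf1* (ENSMUSG00000036585.9), at chr18:38998327-39089058 on the minus strand, encodes acidic FGF, which binds all FGF receptors and lacks a classical secretion signal. Its level was 34.9 and 47.4 CPM in control cells, 43.0 and 52.1 CPM in treated control cells, 59.3 and 57.9 CPM in libraries labelled knockout, and 59.6 and 67.9 CPM in treated libraries labelled knockout. Each library labelled knockout was above each control library, also across treatments, and the treated and untreated control libraries overlapped. With TGF-β the differences were 0.21 (SE 0.19, 95% interval -0.21 to 0.63) in control cells and 0.12 (SE 0.19, 95% interval -0.30 to 0.54) in cells labelled knockout, with adjusted p of 0.512 and 0.754 by edgeR with Benjamini-Hochberg adjustment. The former lay between 0.0032 without control replicate 1 and 0.45 without control replicate 2, and the latter between 0.054 and 0.24 without treated replicates 2 and 1 labelled knockout. Its interaction was -0.088 (SE 0.26) and turned to 0.13 without control replicate 1. *Fgf2*, at chr3:37211441-37304299, encodes basic FGF and had 0 counts in all 8 libraries, where the floor of 3 counts corresponds to 0.238 to 0.661 CPM.

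Among the receptors, *Fgfr2* (ENSMUSG00000030849.10, minus strand) was the most abundant in RPKM in every library. Its level was 13.5 and 10.5 CPM in control cells, 9.65 and 20 CPM in treated control cells, 20.1 and 20.1 CPM in libraries labelled knockout, and 11.2 and 12.5 CPM in treated libraries labelled knockout. Both treated libraries labelled knockout were below both untreated ones, whereas the treated control replicates lay on either side of the untreated control replicates. The difference with TGF-β was -0.76 in cells labelled knockout (SE 0.33, 95% interval -1.49 to -0.032, adjusted p = 0.203 by edgeR with Benjamini-Hochberg adjustment) and 0.30 in control cells (SE 0.33, adjusted p = 0.596). The interaction, -1.06 (SE 0.46, adjusted p = 0.559 by edgeR with Benjamini-Hochberg adjustment), did not pass either and was the only one of the 6 with an unadjusted p under 0.05. Without treated control replicate 2 the difference in control cells turned to -0.31 and the interaction was -0.42, and without treated control replicate 1 the former was 0.72.

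*Fgfr1* (ENSMUSG00000031565.10, chr8:26624126-26686186, plus strand) was at 3.50 and 1.71 CPM in control cells, 2.72 and 3.17 CPM in treated control cells, 4.41 and 3.72 CPM in libraries labelled knockout, and 4.16 and 4.37 CPM in treated libraries labelled knockout, from 14 to 55 counts. Its treated and untreated libraries overlapped in both genotypes, and the differences with TGF-β were 0.17 (SE 0.43) and 0.079 (SE 0.41). They turned to -0.25 without control replicate 2, against 0.78 without control replicate 1, and to -0.039 without untreated replicate 2 labelled knockout. Its second identifier, ENSMUSG00000091895.1, shares all of its 761 exon bases with the first and had 0 counts in every library. *Fgfr3* (ENSMUSG00000054252.9, chr5:34064373-34079716, plus strand) was at 1.57 and 1.71 CPM in control cells, 4.40 and 2.01 CPM in treated control cells, 3.31 and 3.59 CPM in libraries labelled knockout, and 3.99 and 2.94 CPM in treated libraries labelled knockout. The untreated control libraries were the lowest of the 8, with 13 and 14 counts, and the difference with TGF-β in control cells was 0.97 (SE 0.49, 95% interval -0.12 to 2.06, adjusted p = 0.233 by edgeR with Benjamini-Hochberg adjustment), or 0.28 without treated control replicate 1. In cells labelled knockout that difference was 0.0023 (SE 0.46), at -0.21 without treated replicate 1 labelled knockout and 0.24 without replicate 2, and the interaction was -0.97 (SE 0.67, adjusted p = 0.72 by edgeR with Benjamini-Hochberg adjustment), or -0.25 without treated control replicate 1.

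*Fgfr4* (chr13:55254001-55270120) had 0 counts in all 8 libraries. *Pdgfrb* (ENSMUSG00000024620.5, chr18:61204804-61244715), the β chain of the PDGF receptor, had 4 and 1 counts in control cells, 4 and 0 in treated control cells, 1 and 0 in libraries labelled knockout, and 0 in both treated libraries labelled knockout. No library exceeded 4 counts, so neither gene was tested and no fold is given. The other PDGF receptor, *Pdgfra*, picked out after its values were seen, had 0 to 9 counts per library and was not tested. In these libraries *Pdgfa* and *Pdgfb* had at least 186 counts each, while neither PDGF receptor gene had more than 9.

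Without treatment, 0 of the 6 tested genes were called between libraries labelled knockout and control libraries by edgeR or by DESeq2, with 1 of 6, *Fgf1*, at an unadjusted p under 0.05 as were 14.9% of all genes, and 1.83% of all genes tested were called. All but *Pdgfb*, that is 5 of 6, were higher in both untreated libraries labelled knockout than in both untreated control libraries, as were 26.8% of all genes tested. The differences were 0.72 for *Pdgfa* (SE 0.34), 0.23 for *Pdgfb* (SE 0.71), 0.51 for *Fgf1* (SE 0.19), 0.63 for *Fgfr1* (SE 0.44), 0.74 for *Fgfr2* (SE 0.33) and 1.07 for *Fgfr3* (SE 0.50) on the log2 scale. Adjusted p by edgeR with Benjamini-Hochberg adjustment ran from 0.239 for *Fgf1* to 0.916 for *Pdgfb*, whose difference turned to -0.020 without untreated replicate 1 labelled knockout. Without control replicate 1 *Fgf1* was at 0.30 and *Fgfr1* at 1.23, and without control replicate 2 *Fgfr1* was at 0.20. *Pdgfa* was called when only these 4 libraries were fitted (0.70, adjusted p = 0.0313 by edgeR with Benjamini-Hochberg adjustment) and without the filter on low counts (0.69, adjusted p = 0.0214), and its adjusted p ran from 0.0214 to 0.831 over the alternatives. The median over the 6 was 0.68, beside 0.018 over all genes tested, and it describes only genes that passed the filter on low counts.

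With TGF-β, 0 of the 6 were called between libraries labelled knockout and control libraries by edgeR or by DESeq2, with 1 of 6, again *Fgf1*, at an unadjusted p under 0.05 as were 31.4% of all genes, while 15% of all genes tested were called. *Fgf1* and *Fgfr1* were higher in both treated libraries labelled knockout, by 0.42 (SE 0.19) and 0.53 (SE 0.41), and the other 4 overlapped, while 28.4% of all genes tested were higher and 27.4% lower in both. The values were 0.51 for *Pdgfa* (SE 0.31), 0.43 for *Pdgfb* (SE 0.67), -0.32 for *Fgfr2* (SE 0.32) and 0.10 for *Fgfr3* (SE 0.44), with adjusted p over the 6 from 0.152 to 0.9 by edgeR with Benjamini-Hochberg adjustment. *Pdgfa* was called without treated control replicate 1 (1.00, adjusted p = 0.0484 by edgeR with Benjamini-Hochberg adjustment) and was at 0.013 without treated replicate 2 labelled knockout (adjusted p = 0.988), and it was also called by edgeR when the filter on low counts was left out (0.54, adjusted p = 0.0294). *Pdgfb* turned to -1.38 without treated replicate 2 labelled knockout and to -0.13 without treated control replicate 2, *Fgfr2* to 0.30 without treated control replicate 2, and *Fgfr3* to -0.34 without treated control replicate 2 and -0.13 without treated replicate 1 labelled knockout. The median over the 6 was 0.43, beside -0.012 over all genes.

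For the interaction of genotype and TGF-β, 0 of the 6 genes and 0% of all genes tested were called by edgeR, with 1 of 6 and 1134 of 13028 at an unadjusted p under 0.05. DESeq2 called 31 genes and none of the 6. Each comparison between genotypes shares libraries with both treatment comparisons, so their values are given side by side only.

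**Figure D2:**
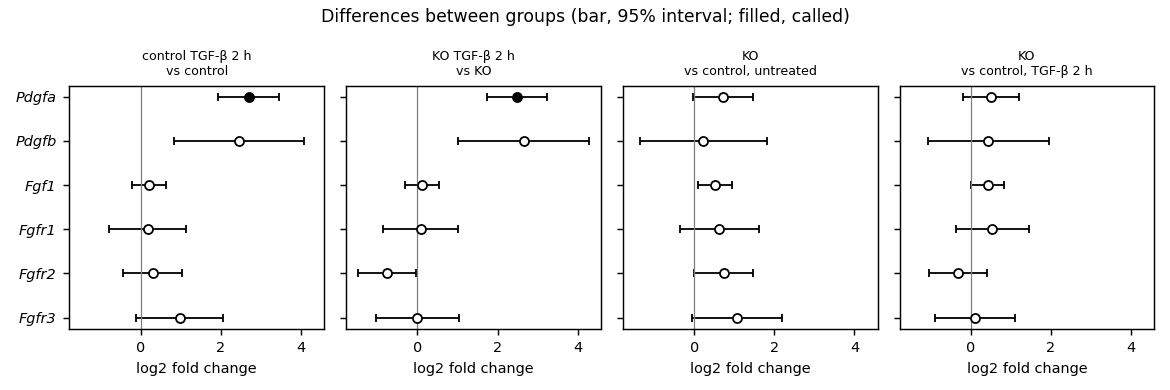
Fitted log2 fold changes (x axis) of the 6 tested genes (y axis) in the 4 pairwise comparisons, 1 panel each (KO, labelled knockout), as points with 95% intervals, filled where called. The filled points are *Pdgfa* at 2.70 in control cells and 2.49 in cells labelled knockout with TGF-β, and the intervals of *Pdgfb* are wider, from 0.83 to 4.07 and from 1.02 to 4.29.

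*Pdgfa* and *Pdgfb* were higher in treated control replicate 1 than in replicate 2, by 0.83 for *Pdgfa* and 1.48 for *Pdgfb* on the log2 scale, and higher in treated replicate 2 labelled knockout than in replicate 1, by 0.88 and 2.60, whereas the PDGF ligand *Pdgfc* was lower in both, by 0.34 and 0.043. This split, and the genes named for it, were chosen after the values had been seen, and it was not tested. Of all genes tested, 4450 of 13028 (34.2%) lay on these same sides, and 135 (1.04%) did so by more than 1 log2 unit in both genotypes. Of the 10 tested FGF and ERK response genes, 7 lay on these sides (70%) and 3 by more than 1 log2 unit in both genotypes (30%), namely *Dusp5*, *Dusp6* and *Spry2*. Of the epithelial markers 4 of 6 lay on these sides (66.7%), with *Cldn4* by 2.92 and 2.30, and of the FGF co-receptors and binding proteins 6 of 10 (60%). Of the 6 tested ligands and receptors themselves, 2 lay on these sides (33.3%), namely *Pdgfa* and *Pdgfb*. Only *Pdgfb* did so by more than 1 log2 unit in both genotypes (1 of 6, 16.7%). The sides were taken from these 2 genes, so that their shares are no comparison with all genes. The share was near that of all genes for the other PDGF and VEGF genes, at 2 of 6 (33.3%), the receptor adaptors, at 5 of 17 (29.4%), and the splicing regulators, at 2 of 5 (40%). *Dusp5*, a nuclear ERK phosphatase, was at 6.03 and 8.42 CPM in control cells, 30.6 and 8.36 CPM in treated control cells, 7.05 and 7.71 CPM in libraries labelled knockout, and 9.05 and 71.3 CPM in treated libraries labelled knockout. *Dusp6*, its cytoplasmic counterpart, was at 65.4 and 84.6 CPM in control cells, 101 and 30.1 CPM in treated control cells, 52.0 and 56.8 CPM in libraries labelled knockout, and 27.6 and 81.5 CPM in treated libraries labelled knockout. The same treated replicates were thus high for *Pdgfa*, *Pdgfb*, *Dusp5* and *Dusp6*, and for *Dusp6* the other treated replicate lay under the untreated range in both genotypes. Of direct TGF-β targets, *Smad7* was also on these sides, by 0.95 and 0.65 log2 units, and *Skil* by 0.12 and 0.11, whereas *Snai1*, *Id1* and *Id3* were on them in control cells only. The part of these library differences in the results for *Pdgfa* and *Pdgfb* was not tested beyond leaving each library out. The median absolute difference between replicates over all genes was 0.334 log2 units in treated control cells, against 0.2 to 0.218 in the other groups.

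By Pearson correlation of log2 CPM over the 8 libraries, among 10435 genes with a mean of at least 50 counts, the genes most like *Pdgfa* were *Tlr2* (0.994), *2310007B03Rik* (0.993) and *Stard10* (0.992), values that describe points of shared treatment and library. *Tlr2*, a receptor for bacterial lipoproteins, was at 1.93 and 1.71 CPM in control cells, 23.6 and 12.4 CPM in treated control cells, 3.97 and 4.12 CPM in libraries labelled knockout, and 14.4 and 38.8 CPM in treated libraries labelled knockout. It had the same higher replicate as *Pdgfa* in both treated groups.

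Of the 20 other FGF ligand genes, 2 were tested, and edgeR and DESeq2 called 0 of them in any comparison, also at an unadjusted p under 0.05. *Fgf13*, a member of the intracellular FGF homologous factors that does not act as a secreted ligand, was at 13.4 to 23.8 CPM over the 8 libraries. *Fgf18* was at 0.245 to 1.59 CPM. The stromal ligands *Fgf7* and *Fgf10*, which act on the epithelial form of *Fgfr2*, had 0 to 2 and 0 counts per library and are named here after their values were seen. The median difference of the 2 tested genes with TGF-β was 0.34 in control cells and -0.16 in cells labelled knockout, beside 0.016 and 0 over all genes. Between genotypes it was 0.016 without treatment and -0.49 with it, beside 0.018 and -0.012 over all genes.

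The list of other PDGF and VEGF ligands and receptors had 6 of 11 genes tested. With TGF-β 0 rose and 1 fell in control cells, 1 rose and 0 fell in cells labelled knockout, and between genotypes 0 were called without treatment and 2 were higher in treated libraries labelled knockout by edgeR. Among all genes tested, edgeR called 4.69% higher and 4.47% lower, 4.25% and 2.57%, 1.03% and 0.798%, and 8.47% and 6.57% in these comparisons. For this list DESeq2 gave the same counts as edgeR. At an unadjusted p under 0.05 there were 1 higher and 2 lower, 2 and 1, 1 and 0, and 2 and 0 genes in these comparisons, beside 26.8%, 22.7%, 14.9% and 31.4% of all genes in either direction. *Pdgfc*, a PDGF ligand that must be cleaved to be active, was at 102 to 161 CPM over the 8 libraries and was not called by edgeR. Per length it stood above *Pdgfb* in control cells, at 21.9 and 23.4 RPKM against 17.3 and 15.5 RPKM. *Vegfa*, the main angiogenic ligand, was at 85.9 and 77.5 CPM in control cells, 196 and 132 CPM in treated control cells, 91.3 and 64.1 CPM in libraries labelled knockout, and 159 and 428 CPM in treated libraries labelled knockout, and rose in the latter by a log2 change of 1.93 (SE 0.41, adjusted p = 0.024 by edgeR with Benjamini-Hochberg adjustment). That call was lost without untreated replicate 1 or 2 or treated replicate 2 labelled knockout, with log2 changes of 1.07 to 2.49 over the 8 libraries left out. *Vegfb* fell by 1.57 with TGF-β in control cells (SE 0.24, adjusted p = 0.00566 by edgeR with Benjamini-Hochberg adjustment; lost without control replicate 1, with an adjusted p of 0.0714), and was 0.99 higher in treated libraries labelled knockout than in treated control libraries (adjusted p = 0.0246, lost without treated control replicate 2 or either treated replicate labelled knockout). *Flt1*, a VEGF receptor, was 0.97 higher in treated libraries labelled knockout (SE 0.14, adjusted p = 0.00356 by edgeR with Benjamini-Hochberg adjustment), a call kept without each of the 8 libraries. The list medians were -0.032, 0.30, -0.032 and 0.70, beside 0.016, 0, 0.018 and -0.012 over all genes.

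FGF co-receptors and binding proteins, which include the heparan sulfate carriers that hold FGF on its receptor, had 10 of 14 identifiers tested, for 13 symbols, *Flrt3* having 2. With TGF-β 1 rose in control cells and 2 in cells labelled knockout, and between genotypes 1 was higher without and 3 with treatment in libraries labelled knockout, while edgeR called 0 lower in any comparison. Over all genes tested, the shares called higher by edgeR were 4.69%, 4.25%, 1.03% and 8.47% in these comparisons. DESeq2 called 1, 4, 1 and 3 higher and 0 lower in these comparisons, and at an unadjusted p under 0.05 there were 2, 6, 2 and 5 higher, with 1 lower in each genotype comparison, beside 26.8%, 22.7%, 14.9% and 31.4% of all genes in either direction. *Sdc3*, a syndecan, was at 14.5 and 12.1 CPM in control cells, 42.3 and 24.4 CPM in treated control cells, 101 and 122 CPM in libraries labelled knockout, and 244 and 268 CPM in treated libraries labelled knockout. All 4 libraries labelled knockout were above all 4 control libraries, by 8.40-fold without treatment (log2 3.07, SE 0.26, adjusted p = 0.000764 by edgeR with Benjamini-Hochberg adjustment) and 7.66-fold with it (2.94, SE 0.25, adjusted p = 0.000477), and both calls were kept without each of the 8 libraries. With TGF-β *Sdc3* rose by 1.33 in control cells and by 1.20 in cells labelled knockout (adjusted p = 0.0156 and 0.017 by edgeR with Benjamini-Hochberg adjustment), calls that were lost without either untreated library of the same genotype and, for cells labelled knockout, without treated replicate 2, with the highest adjusted p at 0.112 and 0.153. *Fgfrl1*, an FGF receptor without a kinase domain, rose in cells labelled knockout from 3.75 and 5.05 CPM to 14.8 and 18.8 CPM (1.91, SE 0.38, adjusted p = 0.0188 by edgeR with Benjamini-Hochberg adjustment), lost without either untreated replicate or treated replicate 2 labelled knockout at an adjusted p of up to 0.141. In control cells it was at 4.58 and 4.15 CPM without and 11.6 and 5.61 CPM with treatment (0.98, SE 0.38, adjusted p = 0.131 by edgeR with Benjamini-Hochberg adjustment), and its interaction was 0.93 (SE 0.53, adjusted p = 0.656). *Gpc1*, a glypican, and *Sdc2* were also higher in treated libraries labelled knockout than in treated control libraries, by 1.05 and 2.31, but the call of *Sdc2* was kept only without treated control replicate 2 and that of *Gpc1* was lost without treated control replicate 2 or treated replicate 2 labelled knockout. The list medians were 0.19, 0.56, 0.071 and 0.44, beside 0.016, 0, 0.018 and -0.012 over all genes.

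All 17 receptor adaptors and proximal signalling genes were tested. With TGF-β 1 rose and 1 fell in control cells and 1 rose in cells labelled knockout, and between genotypes 0 were called without treatment by edgeR, and 1 was higher and 1 lower with it. The edgeR shares of all genes tested were 4.69% higher and 4.47% lower, 4.25% and 2.57%, 1.03% and 0.798%, and 8.47% and 6.57%. DESeq2 called 1 higher and 1 lower, 2 and 0, 0 and 1, and 1 and 1 in these comparisons. At an unadjusted p under 0.05 there were 4 higher and 1 lower, 6 and 0, 0 and 2, and 4 and 1, beside 26.8%, 22.7%, 14.9% and 31.4% of all genes in either direction. *Gab2*, a docking protein, rose in both genotypes, from 17.2 and 17.3 to 33.7 and 36.5 CPM in control cells (1.02, SE 0.20, adjusted p = 0.0167 by edgeR with Benjamini-Hochberg adjustment) and from 16.8 and 19 to 31.4 and 42.7 CPM in cells labelled knockout (1.04, SE 0.20, adjusted p = 0.0167). Both calls were lost without either untreated library of the genotype, and in cells labelled knockout also without treated replicate 2, with adjusted p of up to 0.143 and 0.134. *Crkl*, another adaptor, fell by 0.57 with TGF-β in control cells (adjusted p = 0.0373 by edgeR with Benjamini-Hochberg adjustment, kept only without treated control replicate 1) and was 0.79 higher in treated libraries labelled knockout than in treated control libraries (adjusted p = 0.00794, lost without treated replicate 2 labelled knockout). *Pik3ca*, the catalytic subunit of PI3K, was 0.58 lower in that comparison on the log2 scale, from 147 and 158 CPM to 94.5 and 109 CPM, and kept its call only without treated control replicate 1. The list medians were 0.25, 0.32, 0.014 and 0.14, beside 0.016, 0, 0.018 and -0.012 over all genes.

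Of 13 FGF and ERK response and feedback genes, 10 were tested. With TGF-β 0 rose and 1 fell in control cells and 1 rose and 1 fell in cells labelled knockout, and between genotypes 0 were called without treatment by edgeR or DESeq2, and 1 was higher with it, where 15% of all genes were called. In the other comparisons, in this order, edgeR called 9.16%, 6.82% and 1.83% of all genes in either direction. DESeq2 called 0 higher and 1 lower, 2 and 1, 0 and 0, and 1 and 0 in these comparisons. The counts at an unadjusted p under 0.05 were 0 higher and 2 lower, 3 and 1, 1 and 2, and 2 and 1, beside 26.8%, 22.7%, 14.9% and 31.4% of all genes in either direction. *Spry1*, a feedback inhibitor of receptor tyrosine kinases, fell in both genotypes, from 14.5 and 17.2 to 2.53 and 3.70 CPM in control cells and from 8.60 and 10.9 to 1.71 and 1.83 CPM in cells labelled knockout. The log2 changes were -2.35 (SE 0.31, adjusted p = 0.00306 by edgeR with Benjamini-Hochberg adjustment) and -2.46 (SE 0.33, adjusted p = 0.00328), and both calls were kept without each of the 8 libraries. *Spred2*, another inhibitor of ERK signalling, rose from 25.6 and 27.9 to 51.3 and 52.3 CPM in cells labelled knockout (0.95, SE 0.17, adjusted p = 0.0109 by edgeR with Benjamini-Hochberg adjustment, lost without either untreated replicate or treated replicate 2 labelled knockout), and was at 19.3 and 21.7 CPM without and 27.6 and 24.9 CPM with treatment in control cells (0.35, SE 0.17, adjusted p = 0.209). Its interaction was 0.60 (SE 0.23, adjusted p = 0.519 by edgeR with Benjamini-Hochberg adjustment). The treated libraries labelled knockout were 0.98 above the treated control libraries for *Spred2* (adjusted p = 0.00646 by edgeR with Benjamini-Hochberg adjustment), a call kept without each of the 8 libraries. *Dusp4*, *Dusp5*, *Spred1* and *Spred3* were not called by edgeR in any comparison. The list medians were -0.027, 0.17, -0.079 and 0.40, beside 0.016, 0, 0.018 and -0.012 over all genes.

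Of 6 regulators of the splicing of FGF receptor exons, 5 were tested and *Esrp1*, which promotes the epithelial exon of *Fgfr2*, had 0 counts in every library, a value seen before it was picked out. In the treatment comparisons and between untreated genotypes edgeR called 0 of them, DESeq2 called 0, 1 and 1, and 2, 1 and 2 had an unadjusted p under 0.05, as had 26.8%, 22.7% and 14.9% of all genes. With TGF-β 1 was higher and 1 lower in libraries labelled knockout than in control libraries by edgeR and by DESeq2, where edgeR called 15% of all genes. At an unadjusted p under 0.05 there were 2 higher and 1 lower, beside 31.4% of all genes in either direction. The genes called by edgeR were *Esrp2* by 0.69 (66.7 and 69.9 against 48.4 and 36.3 CPM, adjusted p = 0.0464 by edgeR with Benjamini-Hochberg adjustment) and *Ptbp2*, a splicing repressor, by -0.83 (40.7 and 26.8 against 58.6 and 61.4 CPM, adjusted p = 0.0324). Of the 8 libraries left out in turn, *Esrp2* kept its call only without treated control replicate 1, at log2 differences of 0.50 to 0.93, and *Ptbp2* kept it only without treated control replicate 1 or treated replicate 1 labelled knockout, at -1.15 to -0.55. The counts per gene hold no measure of which *Fgfr2* exon was used. The list medians were -0.021, 0.24, -0.15 and 0.028, beside 0.016, 0, 0.018 and -0.012 over all genes.

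As a reference for the treatment, known targets of TGF-β signalling were followed. In control cells *Smad7*, *Skil* and *Snai1* rose by 1.69, 2.10 and 4.23 on the log2 scale and *Id1* and *Id3* fell by 0.65 and 1.10, with adjusted p from 0.000416 to 0.048 by edgeR with Benjamini-Hochberg adjustment. In cells labelled knockout *Smad7*, *Skil* and *Snai1* rose by 2.28, 2.34 and 3.99, with adjusted p from 0.000313 to 0.00449 by edgeR with Benjamini-Hochberg adjustment, whereas the values of *Id1* and *Id3* were 0.31 and 0.20 (adjusted p = 0.337 and 0.744). The calls of *Skil* and *Snai1* in both treatment comparisons were kept without each of the 8 libraries, those of *Smad7* were lost without either untreated library of the genotype, and those of *Id1* and *Id3* in control cells were lost without either untreated control replicate, treated control replicate 2 or either untreated replicate labelled knockout. Between treated genotypes *Snai1* was 0.79 higher in libraries labelled knockout (adjusted p = 0.0479 by edgeR with Benjamini-Hochberg adjustment), kept only without treated control replicate 1. The interaction was 0.96 for *Id1* and 1.30 for *Id3* (SE 0.25 and 0.42, adjusted p = 0.444 and 0.495 by edgeR with Benjamini-Hochberg adjustment). No interaction was called by edgeR or DESeq2 in any of the pathway lists above. At an unadjusted p under 0.05 each of them other than the FGF ligands held 1 or 2 genes, beside 8.7% of all genes tested.

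Several of the genes overlap others in the annotation, and how strand was treated in counting is not known, so reads of overlapping exons on opposite strands cannot be told apart. The exons of *Pdgfa* share 813 bases (26.1%) with the single exon of *6330403L08Rik* on the plus strand, chr5:139471010-139476530, which had 136 and 115 counts in control cells, 308 and 206 in treated control cells, 57 and 96 in libraries labelled knockout, and 272 and 330 in treated libraries labelled knockout. *Pdgfa* itself had 222 and 186, 2193 and 1090, 198 and 287, and 1970 and 3731 counts in the same libraries. *Fgf2* shares 242 exon bases (13.4%) with *Nudt6* on the other strand, which had 13 to 26 counts per library, and 55 (3.1%) with *Cetn4*, also on the other strand, which had 2 to 8. It also shares 32 (1.8%) with *Bbs12* on the same strand, which had 27 to 130 counts per library. *Fgfr1* shares 125 exon bases (1.6%) with *Gm16159* on the other strand, which had 0 counts in every library. The annotated *Fgfr2* model runs over chr7:137305965-140315033 because of a transcript that shares 314 exon bases (4%) with *Ctbp2* on the same strand, which had 294 to 2176 counts per library. *Arhgap26* spans *Fgf1* on the other strand without sharing an exon base. The median difference between untreated libraries labelled knockout and control libraries was -0.25 over 943 genes of chromosome 7, which holds *Fgfr2*, and 0.18 over 695 genes of chromosome 8, which holds *Fgfr1*. It was -0.0011 to 0.075 on chromosomes 5, 15 and 18, which hold the other tested members. The lowest was -0.35 over 641 genes of chromosome 3, or -0.34 with TGF-β, where *Pik3ca* and *Ptbp2* lie.

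**Figure D3:**
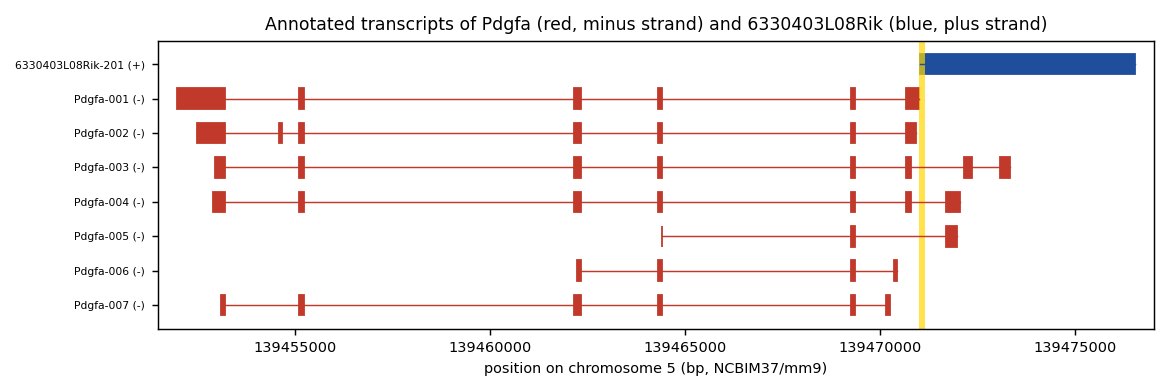
Annotated exons (boxes) of the 7 *Pdgfa* transcripts on the minus strand and of *6330403L08Rik* on the plus strand, by position on chromosome 5 in bp (x axis, NCBIM37); the yellow band marks the 157 bases before the start of transcript Pdgfa-001. The band lies over the start of *6330403L08Rik*, and 3 of the 7 *Pdgfa* transcripts begin with an exon inside the *6330403L08Rik* exon.

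Promoter sequences from RefSeq on GRCm38.p6 were found by symbol for 5 of the 9 genes, with no entry for *Fgfr1*, *Fgf1*, *Pdgfb* and *Pdgfrb*. *Pdgfa* has 2 entries, and the 157 bases shown are the part of the upstream entry that lies before the start of transcript Pdgfa-001, while 3 other transcripts begin further upstream. They are shown because *Pdgfa* was the gene called in both genotypes. They lie on the minus strand at chr5:138995038-138995194 of GRCm38.p6, match NCBIM37 exactly at chr5:139470992-139471148, and 139 of them lie inside the exon of *6330403L08Rik* on the other strand. In the sequence, written 5′ to 3′ on the minus strand, capitals mark the 2 matches of GGAA, the core of ETS factor motifs.
*Pdgfa*: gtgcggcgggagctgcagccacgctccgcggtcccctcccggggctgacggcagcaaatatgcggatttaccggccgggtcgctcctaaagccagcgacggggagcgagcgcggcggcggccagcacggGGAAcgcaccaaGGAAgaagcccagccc
The G and C content was 72.0%. On both strands AGAC, a SMAD box, TGANTCA, an AP-1 motif, and GGGCGG, a GC box, had 0 matches in this window. Of 32851 windows, each the first 157 bases of a RefSeq promoter entry, 69.4%, 4.24% and 17.6% held these letters. These windows need not reach up to a transcript start. GGAA was held by 83.0% of the windows. A match describes letters in the window, not a bound site.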

How the data were processed

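RNA-seq was analysed for 8 libraries of NMuMG cells in 4 groups of 2. The authors deposited counts of reads per gene, as whole numbers without normalization, for 37310 genes whose identifiers are those of GENCODE vM1 on NCBIM37 (mm9). The paper describes alignment with subjunc to mm10 and mm9, removal of duplicates with samtools and DESeq2, whereas the submitters' processing notes name HISAT2, limma and mm10, and library kit and sequencer also differ between these sources. Neither source names the program that counted reads or how it treated strand. In R 4.3.3, edgeR 4.0.16 was used with TMM factors, filterByExpr (13028 genes kept) and quasi-likelihood tests in 1 model of the 4 groups, with Benjamini-Hochberg adjustment over all genes tested. A call needed an adjusted p under 0.05 and an absolute log2 fold change above 0.5, the thresholds of the paper, and for the interaction the adjusted p alone. CPM and RPKM used effective library sizes and the union of annotated exons. Alternatives were DESeq2 1.42.0, RLE factors, other filters on low counts, no fold threshold, the replicate number as a block, only the libraries compared, and each library left out in turn. Replicate numbers come from the labels. All members were named, with up to 6 genes of each other list, those called first and then by smallest p. The 3 genes most like a called member were also named, as were genes overlapping a member on either strand. Of the last, those that share no exon base with a member were not named, except *Arhgap26*. Members and lists were chosen with earlier results of these data known. Comparisons sharing libraries were not correlated, and no set test was made. A gene of the list of TGF-β targets is not reported here.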

Additional observations from a re-analysis of the deposited data

How the results depend on the processing

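The call of *Pdgfa* with TGF-β in control cells held under every alternative, and the numbers of genes called stayed within 1.5 times under RLE factors, a mean of at least 10 counts and no fold threshold. Without a filter on low counts the genes called were 2021 instead of 1194 with TGF-β in control cells, 1832 instead of 889 in cells labelled knockout, 756 instead of 238 between untreated genotypes and 211 instead of 0 for the interaction, and the members called were 2, 2 and 1 in the first, second and untreated comparisons and 1 between treated genotypes. In that fit the prior degrees of freedom were infinite, so that every gene took the spread of the trend. With only the 4 libraries of a comparison, 470 genes were called with TGF-β in control cells, 804 between untreated genotypes and 410 instead of 1959 between treated genotypes, with 2 members in the first and 1 in the second of these. DESeq2 called 401 genes between untreated genotypes and 31 for the interaction. The cause was not tested for the fits on 4 libraries or DESeq2.

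The replicate number as a block gave 831, 676, 150, 1490 and 0 genes called with TGF-β in control cells, with TGF-β in cells labelled knockout, between untreated genotypes, between treated genotypes and for the interaction, and the same numbers of members. Deviations of same-numbered libraries correlated at 0.297, -0.00915, 0.098 and -0.473 in the pairwise comparisons in that order, values that differed in sign and size. The main fit, without a block, assumes that same-numbered libraries share only a number, which these values do not show and which was not tested. A crossed pairing, which swapped the 2 numbers within the treated knockout label and was added after seeing the data, called 2809 genes and 0 members between treated genotypes.

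With each library left out in turn, where a lone library is assumed to vary like the other groups, the genes called ran from 145 to 1484, 136 to 1381, 42 to 390, 477 to 2762 and 0 to 6 in the same order, and the members called from 1 to 2, 0 to 2, 0 to 0, 0 to 1 and 0 to 0. The log2 change of *Pdgfa* ran from 2.21 to 3.05 in control cells, 2.01 to 2.89 in cells labelled knockout, 0.606 to 0.84 between untreated and 0.0128 to 1.00 between treated genotypes, and its interaction from -0.685 to 0.307, the latter turned also without treated replicate 1 labelled knockout (0.194). That of *Pdgfb* ran from 1.51 to 3.01, 0.862 to 3.46, -0.0198 to 0.445 and -1.38 to 1.37, and its interaction from -1.58 to 1.17, with turned values of -0.333 and -0.0131 for the interaction and -0.13 between treated genotypes. For *Fgf1* the interaction ran from -0.321 to 0.125, with 0.0827 and 0.0357 also turned. For *Fgfr1* the change with TGF-β ran from -0.246 to 0.778 in control cells and -0.0391 to 0.201 in cells labelled knockout, and the interaction from -0.692 to 0.332, with 0.0463 and 0.0254 also turned. For *Fgfr2* the change ran from -0.314 to 0.722 in control cells and -0.74 to 0.295 between treated genotypes. For *Fgfr3* it ran from -0.209 to 0.237 in cells labelled knockout, with -0.0452 also turned, and from -0.341 to 0.799 between treated genotypes, with -0.125 also turned. *Fgfr3* in cells labelled knockout was also turned with a mean of at least 10 counts (-0.00512), under the replicate block (-0.0369) and with only 4 libraries (-0.000614). The cause was not tested for any of these.

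With 4297832 to 13574397 counts per library, genes such as *Fgfr1* and *Fgfr3* rested on 13 to 55 counts and had standard errors of 0.41 to 0.50 in the pairwise comparisons, and lower levels of *Fgf2* and *Fgfr4* than the floor would not have been seen. Clone and genotype cannot be told apart, and neither protein nor the use of receptor exons was measured here.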
